A study of Mus musculus with 6 samples.

Results

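The muscle microRNAs miR-1a, miR-133a, miR-133b and miR-206 were followed through 6 small RNA libraries of mouse heart cardiomyocytes. A microRNA (miRNA) is a short RNA cut from a hairpin precursor, whose 5p and 3p arms are counted separately. Members were taken by name from the mature miRNAs of the count table, after dropping the arm suffix and the genomic copy number. This gave 9 of 1974 mature entries, of which 7 had at least 1 count and 2, miR-133b-5p and miR-206-5p, were at 0 in all 6 libraries. All mice were C57BL/6. The knockout libraries came from LncSync-/- mice, lacking the RNA that the series calls lncSync, and the others from mice labelled wild type. Adults, whose age is not given in the sources used here, were represented by 2 wild-type and 2 knockout libraries, and embryos at e13.5 by 1 library of each genotype. How the null allele was made, whether hearts were pooled and whether replicates came from separate animals are likewise not given in the sources used here, so a p-value reflects only how far these libraries vary, and that spread may be technical.

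Mature counts ranged from 14347091 to 17933518 in the adult libraries and were 8944553 in the e13.5 wild-type and 2671957 in the e13.5 knockout library. Levels are given as CPM, the usual counts scaled to a common library total, or as a percentage, both of the library's mature counts. The limit that a count of 0 allows, 3 counts, was 0.167 to 0.209 CPM in adults and 0.335 CPM in e13.5 wild type, and reached 1.12 CPM for the e13.5 knockout. These limits, and all intervals below, cover counting error only. The cardiomyocyte label was checked with miRNAs outside the members, the 6 arms of miR-208a, miR-208b and miR-499, which lie in myosin genes of muscle. With the libraries of a stage pooled, all 6 arms were detected at both stages. Single libraries held 5 or 6 of them in adults, 6 in e13.5 wild type and 4 in e13.5 knockout. The summed level of these arms was 5279 to 8139 CPM in adults and 2185 to 4064 CPM at e13.5. The RNA named as knocked out is not among the features counted, so the table gives no direct check of the genotype. Outside the members, miR-322-3p had 3617 to 16789 counts in the wild-type libraries and 0 in every knockout library.

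miR-1 and miR-133 are the characteristic miRNAs of striated muscle. Their hairpins sit together on shared primary transcripts that muscle transcription factors such as SRF, MEF2 and MyoD switch on during differentiation. In muscle precursors miR-1 is known to favour differentiation, whereas miR-133 is known to favour proliferation and to restrain SRF. miR-206 has the same seed as miR-1, the seed being bases 2 to 8 that pair with target messages, and is best known from skeletal muscle. miR-133b shares a locus with miR-206 and is nearly identical in sequence to miR-133a.

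The sequences that tell the members apart are shown first, because reads of near-identical arms can be assigned to either. RefSeq (GRCm38.p6) held 5 of the 9 mature sequences, written 5′ to 3′ with the seed in capitals:
miR-206-3p: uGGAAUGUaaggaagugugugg
miR-133b-3p: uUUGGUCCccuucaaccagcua
miR-1a-1-5p: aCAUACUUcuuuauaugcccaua
miR-206-5p: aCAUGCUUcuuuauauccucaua
miR-133b-5p: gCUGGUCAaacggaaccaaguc
The 5p arms of Mir206 and Mir1a-1 are both 23 bases long and share 20 of them. Counted from the 5′ end of miR-206-5p, the substitutions are G5A, C17G and U19C, and the first of these falls in the seed. Among 1679 mature mouse sequences in that table, miR-6349 and miR-6382 were the 2 others with the miR-206-3p seed, and both were at 0 counts in every library. No other entry among these carried the seed of miR-133b-3p or of the 5p arms shown. The members miR-1a-3p, miR-133a-3p, miR-133a-5p and miR-1a-2-5p are not among these entries, so the search could not return them as seed partners.

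Mir206 (chr1:20679010-20679082) and Mir133b (chr1:20682769-20682887) lie 3686 bases apart on the plus strand of GRCm38, the assembly also called mm10. Both are inside the lincRNA gene Gm28653 (chr1:20669882-20684298 in GENCODE vM21). Mir133b is exonic in both annotated transcripts, and Mir206 is intronic in the spliced one and overlaps an exon edge in the other. The hairpins are printed because all of their counted reads came from 1 arm, the 3p arm in capitals:
Mir206: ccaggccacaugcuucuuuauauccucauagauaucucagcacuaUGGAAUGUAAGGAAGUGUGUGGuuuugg
Mir133b: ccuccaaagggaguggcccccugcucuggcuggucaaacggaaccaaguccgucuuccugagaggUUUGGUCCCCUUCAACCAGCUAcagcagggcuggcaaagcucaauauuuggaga
Mir1a-1 (chr2:180389048-180389124) and Mir133a-2 (chr2:180398379-180398482) are 9254 bases apart on the plus strand, within the long non-coding host gene Mir1a-1hg (chr2:180385604-180401802 in RefSeq). Each has another copy elsewhere in the genome, Mir1a-2 and Mir133a-1. The deposited hairpin entries of both copies repeat nearly the same reads, so the counts of the shared miR-1a-3p and miR-133a arms do not say which copy they came from. The 5p arms of Mir1a-1 and Mir1a-2 are counted separately. miR-1a-1-5p had 157 to 225 counts in the adult libraries, against 0 to 5 for miR-1a-2-5p.

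Since Mir1a-1 and Mir133a-2 share a host gene, its promoter is printed, as the 300 bases around the RefSeq start (chr2:180385354-180385653, plus strand), with a CAGCTG E-box and a TATAA motif in capitals:
Mir1a-1hg: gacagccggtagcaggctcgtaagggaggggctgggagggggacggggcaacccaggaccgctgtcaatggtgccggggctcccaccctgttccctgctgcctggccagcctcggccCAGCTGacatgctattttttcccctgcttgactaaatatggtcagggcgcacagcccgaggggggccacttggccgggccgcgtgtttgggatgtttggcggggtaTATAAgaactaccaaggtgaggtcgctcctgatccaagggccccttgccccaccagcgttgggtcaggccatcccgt
The palindromic E-box CAGCTG, a form that MyoD-type factors can bind, begins 133 bases before the start and occurs in 16.3% of 32851 promoters of this length. TATAA was searched on both strands, begins 27 bases before the start on the transcript strand, and occurs on either strand in 24.9% of promoters. The CArG box and the MEF2 site, searched by their consensus on both strands, had no match in this window and occur in 1.63% and 3.19% of promoters. The motifs do not overlap, and these matches describe letters only.

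Together the 9 arms took 31.0% and 32.8% of mature counts in adult wild-type replicates 1 and 2, and 27.6% and 38.7% in adult knockout replicates 1 and 2. The e13.5 shares were 14.2% for wild type (14.19 to 14.23, Wilson 95% interval) and 9.64% for knockout (9.61 to 9.68). Every adult library was above both e13.5 libraries. The make-up of this share differed more than its size. In adult wild-type libraries miR-1a-3p made up 46.8% and 46.1% of the member counts and miR-133a-3p 49.2% and 50.6%. At e13.5 miR-1a-3p alone made up 98.5% (wild type) and 98.4% (knockout) of member counts. The remaining adult member counts were mostly miR-133b-3p, at 2.23% to 4.10% of the member counts.

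**Figure D1:**
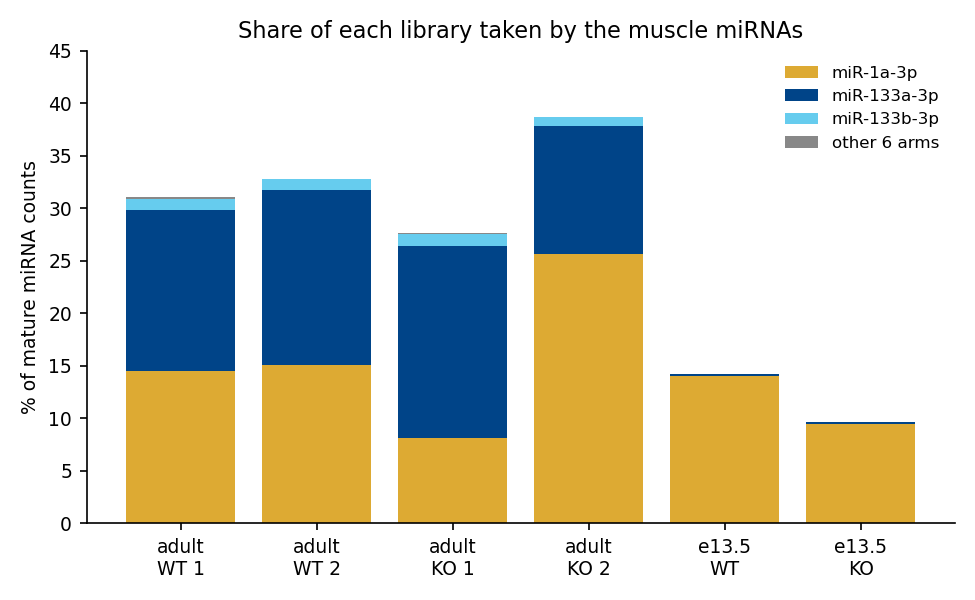
Percentage of mature miRNA counts (y axis, from 0) taken by miR-1a-3p, miR-133a-3p, miR-133b-3p and the other 6 member arms, stacked, in each of the 6 libraries (x axis; WT, wild type; KO, knockout). miR-133a-3p fills about as much of the adult wild-type bars as miR-1a-3p and only 0.193% and 0.148% of counts in the e13.5 bars.

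The comparison of stages asked which arms differ between e13.5 and adult cardiomyocytes. miR-133a-3p, miR-133b-3p, miR-133a-5p, miR-1a-1-5p and miR-206-3p were lower at e13.5, whereas miR-1a-3p, the guide arm of miR-1, did not pass the test. The 3p arms of miR-133a and miR-133b stood apart most. miR-133a-3p was the first or second most abundant miRNA of every adult library and ranked 39 and 61 at e13.5. miR-1a-3p ranked first or second in adults and was number 3 in both e13.5 libraries.

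For miR-133a-3p, the adult wild-type libraries held 2739309 and 2785165 counts, the adult knockouts 2623839 and 2140343, the e13.5 wild-type library 17221 and the e13.5 knockout 3952. These are 15.3%, 16.6%, 18.3% and 12.2% of mature counts in adults against 0.193% and 0.148% at e13.5, with no overlap. The log2 fold of e13.5 over adult was −7.54 (SE 0.64, edgeR adjusted p = 9.11e-05), the 16th lowest of 679 miRNAs tested. This fold is on TMM-scaled counts, fitted over all 6 libraries with genotype in the model, and p-values are Benjamini-Hochberg adjusted over all miRNAs tested.

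miR-133b-3p followed the same pattern at a lower level. It had 200192 and 175679 counts in adult wild-type, 162515 and 151808 in adult knockout, 741 in e13.5 wild-type and 97 in e13.5 knockout libraries. Every adult library was far above both e13.5 libraries, at 8621 to 11330 CPM against 82.8 and 36.3 CPM. Its log2 fold was −8.50 (SE 0.81, edgeR adjusted p = 9.81e-05). Because its sequence is nearly that of miR-133a-3p and the counting of shared reads is not given in the sources used here, its counts are uncertain as a measure of the Mir133b locus.

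miR-133a-5p, the less abundant arm of the miR-133a hairpins, had 20287 and 8684 counts in adult wild-type and 10348 and 10769 in adult knockout libraries, and in the embryos 1077 counts in wild type and 141 in knockout. In CPM the adult libraries, at 517 to 1131, did not overlap the e13.5 libraries, at 120 and 52.8. The log2 fold was −4.16 (SE 0.71, edgeR adjusted p = 0.00136), against −7.54 for the 3p arm of the same hairpins.

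miR-206-3p was rare in all libraries. Its counts were 652 and 268 in adult wild type, 159 and 464 in adult knockout, 22 in e13.5 wild type and 27 in e13.5 knockout. In CPM the lowest adult library, knockout replicate 1 at 11.1, was close to the e13.5 knockout library at 10.1, whereas the e13.5 wild-type library stood at 2.46. The log2 fold was −3.24 (SE 0.85, edgeR adjusted p = 0.0109). This call was lost in the knockout libraries alone (log2 fold −2.15, adjusted p = 0.220) and with library totals in place of TMM (−1.97, adjusted p = 0.0869). It was also lost without the e13.5 wild-type library (−2.61, adjusted p = 0.0796), adult knockout replicate 2 (−2.27, 0.12), adult wild-type replicate 1 (−2.5, 0.0816) or adult wild-type replicate 2 (−2.93, 0.0738).

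miR-1a-1-5p, the rare arm of Mir1a-1, had 225 and 157 counts in adult wild type, 189 and 157 in adult knockout, 8 in e13.5 wild type and 0 in e13.5 knockout. Adults were at 8.92 to 13.2 CPM and the e13.5 wild-type library at 0.894 CPM, while the e13.5 knockout library allows up to 1.12 CPM. The fitted log2 fold was −5.21 (SE 1.07, edgeR adjusted p = 0.00353). Since this arm entered the test through its adult counts alone and 1 library is at 0, the size of that fold depends on the prior count.

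miR-1a-3p is made by hairpins on chromosomes 2 and 18. It had 2606575 and 2536944 counts in adult wild type, 1169149 and 4513713 in adult knockout, 1251873 in e13.5 wild type and 253429 in e13.5 knockout. As shares these are 14.5%, 15.1%, 8.15% and 25.6% in adults against 14.0% and 9.48% at e13.5, so as shares the e13.5 libraries lie inside the adult range. After TMM scaling the e13.5 wild-type library, at 112700 CPM, was still inside the adult range of 84750 to 451800, and the e13.5 knockout, at 43800, was below it. The log2 fold was −1.54 (SE 0.75, edgeR adjusted p = 0.106). It ranged from −0.33 without adult knockout replicate 2 (adjusted p = 0.223) to −2.60 without the e13.5 wild-type library (adjusted p = 0.052). In the wild-type libraries alone it was −0.68 (adjusted p = 0.0719) and in the knockouts alone −2.13 (adjusted p = 0.128). It passed with no filter on low counts (−1.57, adjusted p = 0.0381). A p above the threshold does not show that its level was equal at both stages.

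**Figure D2:**
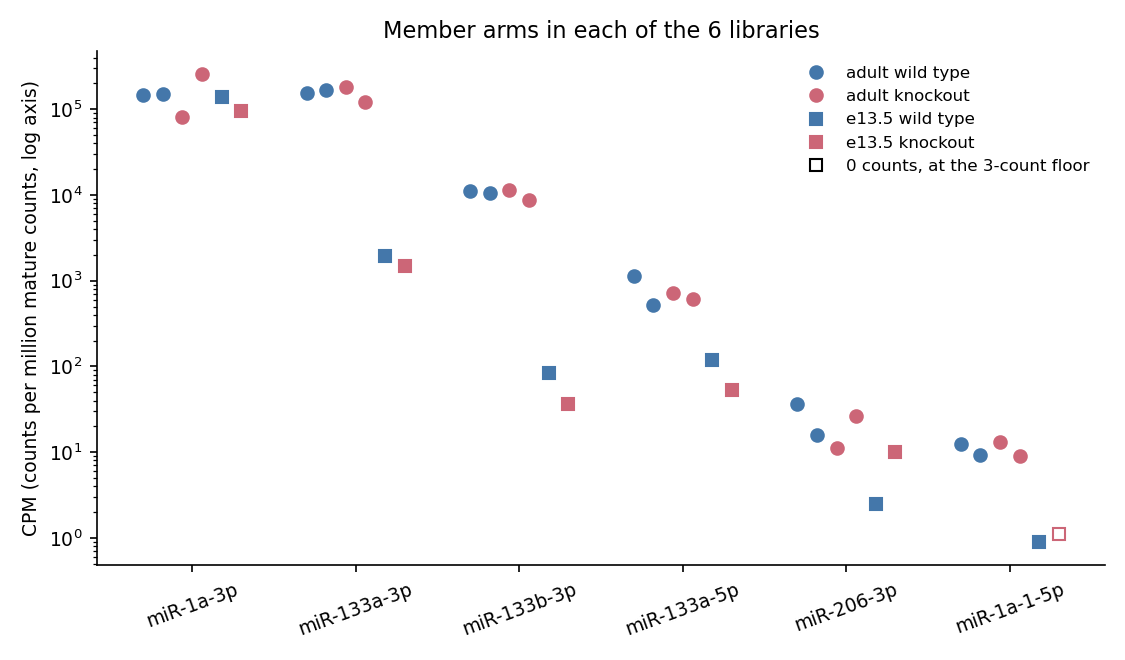
CPM (log y axis) of the 6 member arms that entered the tests, 1 point per library, with circles for adult and squares for e13.5 libraries and an open square where a library had 0 counts, drawn at its floor of 3 counts. The e13.5 squares fall far below the adult circles for miR-133a-3p and miR-133b-3p and lie among them for miR-1a-3p.

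Of the 6 arms tested, 5 were called lower, none higher and 1 did not pass. Among the 5 is miR-1a-1-5p, whose direction was favoured by the filter that its adult counts alone carried it through. In the same fit 28.4% of 679 miRNAs were lower at e13.5, 29.3% were higher and 57.7% differed in either direction. The median log2 fold was −4.68 over the 6 arms and −0.065 over all tested, a description that cannot stand for the 3 arms left out for low counts. With library totals the median of all miRNAs was 0.93, so every stage fold moved up by about that amount, and miR-133a-3p, miR-133b-3p and miR-133a-5p still passed. These 3 arms also passed in the wild-type libraries alone, where 29.5% of 698 miRNAs were lower, and in the knockout libraries alone, where 13.7% of 637 were. They passed without the e13.5 wild-type library, with 20.5% of 730 miRNAs lower, and without the e13.5 knockout library, with 17.7% of 751 lower. In each fit within a genotype the e13.5 side is 1 library, and the spread comes from the 2 adult libraries alone. In the wild-type libraries miR-133a-3p had a log2 fold of −6.97 and in the knockouts −7.74.

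Among markers of other cells, only the leukocyte list was apart between stages both in CPM and after TMM scaling. The summed level of miR-143 and miR-145a, known from smooth muscle, was 71130 to 115700 CPM in adults and 211600 to 351000 CPM at e13.5, with all 4 arms detected at both. Leukocyte miRNAs (miR-142a, miR-223 and miR-150, 6 of 6 arms detected) were at 855 to 1708 CPM in adults and 55.9 to 117 CPM at e13.5. Erythroid miRNAs (miR-451a and miR-144, 3 of 3 arms) ran from 48.4 to 418 CPM in adults and stood at 409 and 7615 CPM at e13.5. Endothelial miR-126a and miR-126b were at 16490 to 31070 and 16340 to 18990 CPM with miR-126b-5p at 0 throughout. The mesenchymal list was at 1932 to 3708 and 3226 to 4733 CPM with 5 of 5 arms detected, and the neuronal list at 78.7 to 155 and 238 to 306 CPM with miR-124-3p at 0 at e13.5. On the TMM scale of the stage folds the smooth-muscle ranges overlapped, at 78840 to 171400 in adults and 97730 to 282800 at e13.5. So did the neuronal ranges, at 104 to 173 and 141 to 192. Erythroid ranges, at 85.28 to 434.5 and 329.3 to 3516, and mesenchymal ranges, at 2315 to 4110 and 1490 to 3812, overlapped there and in CPM. The leukocyte ranges were 1137 to 1776 and 45.03 to 53.92. The endothelial ranges were apart on that scale, at 17150 to 54750 and 7547 to 15300, as were the cardiomyocyte ranges, at 5491 to 14340 and 1009 to 3274. The part of these cells in the stage folds was not tested. In bulk libraries fewer cells of a type and less RNA per cell cannot be told apart, and stage cannot be told apart from any difference in dissection or library preparation.

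Ratios between members inside a library need no scaling, so they show how unequal the changes were. The ratio of miR-1a-3p to miR-133a-3p counts was 0.951 and 0.911 in adult wild type and 0.446 and 2.11 in adult knockout. At e13.5 it was 72.7 in wild type and 64.1 in knockout, with 95% counting intervals of 71.6 to 73.8 and 62.1 to 66.2. Both e13.5 ratios lay far above all 4 adult ratios, and the mean log2 ratio was 6.09 ± 0.13 (SD, n = 2) at e13.5 and −0.074 ± 0.92 (SD, n = 4) in adults. The difference of 6.17 log2 units is 71.9-fold, between the products of hairpins that share host transcripts. The exact permutation test gave p = 0.133 (two-sided), the smallest that 2 against 4 libraries allow, and 0.167 when adjusted over the 5 ratios computed.

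The arms of the miR-133a hairpins shifted toward 5p at e13.5. For every 100 counts of miR-133a-3p there were 0.741 and 0.312 counts of miR-133a-5p in adult wild type and 0.394 and 0.503 in adult knockout. At e13.5 there were 6.25 in wild type and 3.57 in knockout, with 95% counting intervals of 5.88 to 6.65 and 2.99 to 4.22. The groups did not overlap, with a mean difference of 3.36 log2 units or 10.2-fold (exact permutation p = 0.133, two-sided, the smallest possible; 0.167 adjusted).

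The arms of Mir1a-1 went the opposite way. The adult libraries held 0.00348 to 0.0162 counts of miR-1a-1-5p for every 100 counts of miR-1a-3p, against 0.000639 (95% counting interval 0.000276 to 0.00126) in the e13.5 wild-type library. The e13.5 knockout library, at 0 counts, allows up to 0.00146 by its interval. The groups did not overlap (difference −4.34 log2 units with 0.5 added to each count, exact permutation p = 0.133, 0.167 adjusted). The e13.5 side rests on 8 and 0 counts, and with 5 added to each count the difference was −2.41. As miR-1a-3p can come from either Mir1a copy, this ratio does not isolate the arms of 1 hairpin.

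The nearly identical miR-133b-3p and miR-133a-3p were both lower at e13.5, miR-133b-3p more so. There were 7.31, 6.31, 6.19 and 7.09 counts of miR-133b-3p for every 100 of miR-133a-3p in the 4 adult libraries, a narrow range. At e13.5 there were 4.30 (95% counting interval 3.99 to 4.63) and 2.45 (1.99 to 3.0), both below every adult library. The difference was −1.04 log2 units (exact permutation p = 0.133, 0.167 adjusted). For miR-206-3p against miR-1a-3p the groups overlapped: the e13.5 wild-type library was lowest, at 0.00176 per 100, and the e13.5 knockout, at 0.0107, was within the adult range of 0.0103 to 0.0250 (difference −1.65 log2 units, exact permutation p = 0.400).

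At the Mir206 and Mir133b locus the 2 neighbours were counted very unequally. miR-133b-3p outnumbered miR-206-3p 307-fold and 656-fold in adult wild type and 1022-fold and 327-fold in adult knockout. At e13.5 this was 33.7-fold in wild type and 3.59-fold in knockout, with 95% counting intervals of 22.1 to 54.1 and 2.33 to 5.73. Both e13.5 values are below all adult values, on 22 and 27 counts of miR-206-3p. Reads from miR-133a-3p counted as miR-133b-3p would raise these ratios, and their share was not tested.

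**Figure D3:**
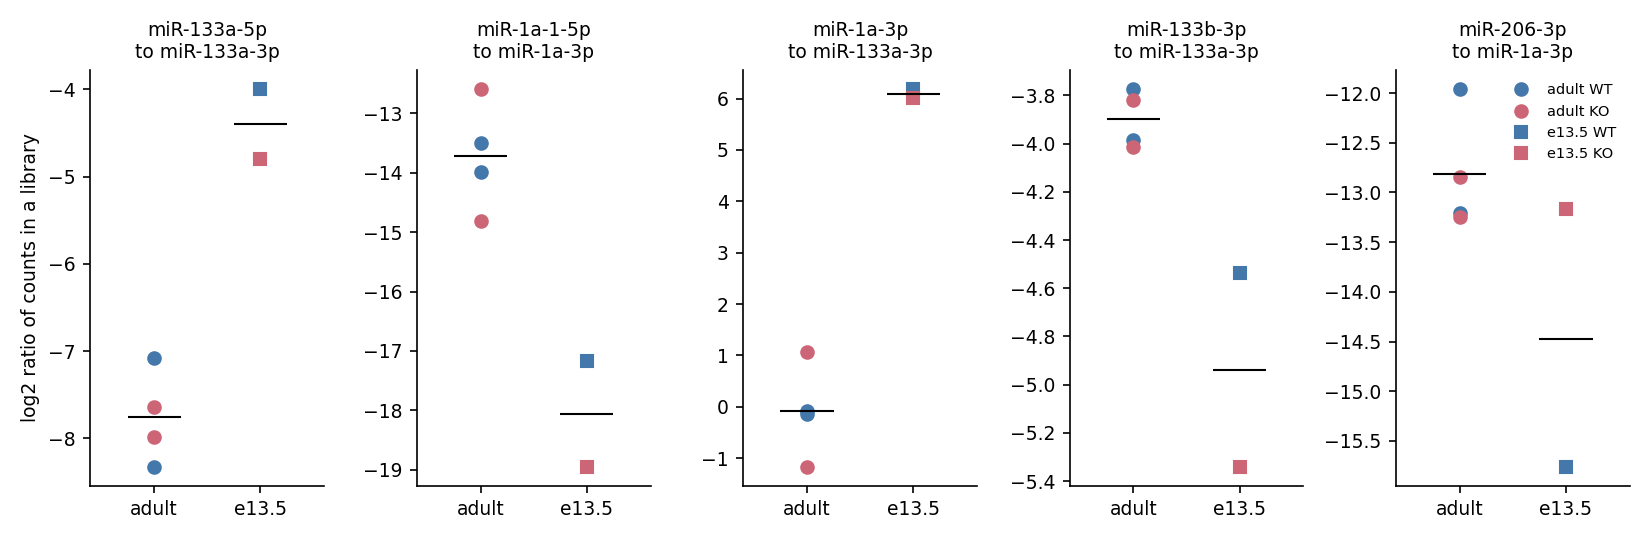
Log2 ratio of 2 member counts in the same library (y axis, 0.5 added to each count, separate scale per panel) for adult (circles) and e13.5 (squares) libraries, with black lines at the group means. Adult and e13.5 libraries separate in the first 4 panels, most widely for miR-1a-3p to miR-133a-3p, and overlap in the last.

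The adult comparison asked whether the lncSync-null libraries differ from wild type. None of the 6 arms tested passed, none had an unadjusted p under 0.05 and DESeq2 called none, while in the same edgeR fit 0.735% of 544 miRNAs passed, all of them lower in the knockouts. The knockout minus wild-type log2 folds were 0.63 (SE 0.71) for miR-1a-3p, 0.12 (SE 0.38) for miR-133a-3p, 0.10 (SE 0.40) for miR-133b-3p and −0.023 (SE 0.48) for miR-133a-5p. They were 0.23 (SE 0.49) for miR-1a-1-5p and −0.028 (SE 0.71) for miR-206-3p. With library totals the values of miR-133a-3p and miR-133b-3p had the opposite sign, at −0.066 and −0.12. The median over the 6 arms was 0.11 against 0.077 over all tested.

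The knockout replicates themselves diverged in miR-1a-3p, on either side of the wild types. After TMM scaling over all 6 libraries, replicate 1 minus replicate 2 was −2.41 log2 units in the knockouts and −0.31 in the wild types. Among 136 miRNAs with an adult mean of at least 100 CPM, 6 including miR-1a-3p had a knockout replicate difference this large, and the median absolute difference was 0.70 in knockouts and 0.27 in wild types. miR-206-3p also differed, at −1.99, whereas miR-133a-3p and miR-133b-3p differed by −0.17 and −0.37. The small size of these last 2 values depends on the scaling. In CPM miR-133a-3p was at 182900 and 121600 and miR-133b-3p at 11330 and 8621, both higher in replicate 1. By the same measure miR-1a-3p, at 81490 and 256300, and miR-206-3p, at 11.1 and 26.35, were still lower in replicate 1. The ratio of miR-1a-3p to miR-133a-3p therefore ran from 0.446 to 2.11 within this group. Without knockout replicate 1 the miR-1a-3p fold was 1.38 (edgeR adjusted p = 8.01e-05), and without replicate 2 it was −1.08 (edgeR adjusted p = 0.00237), each leaving 1 knockout library whose spread is assumed to be that of the wild types. In those fits 5.8% of 603 and 7.29% of 645 miRNAs passed. Erythroid miRNAs summed to 418 CPM in knockout replicate 1 and 48.4 CPM in replicate 2, against 111 and 97.4 CPM in the wild types. Endothelial miRNAs, at 16490 and 31070 CPM, and the cardiomyocyte list, at 5279 and 8139 CPM, were lower in replicate 1 than in replicate 2, as miR-1a-3p was, with wild types at 29810 and 23500 CPM and at 5809 and 5797 CPM. Leukocyte miRNAs were higher in replicate 1, at 1708 against 855 CPM. On the TMM scale, replicates 1 and 2 were closer for leukocyte miRNAs, at 1776 and 1507. Endothelial miRNAs were at 17150 and 54750 on that scale, and the cardiomyocyte list at 5491 and 14340. Smooth-muscle miRNAs, at 87830 and 171400, and the mesenchymal list, at 2315 and 3711, were also lower there in replicate 1, whereas erythroid miRNAs were higher, at 434 and 85.3. The part of these in the miR-1a-3p difference was not tested.

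At e13.5 the 2 genotypes could only be described, with 1 library each and no replicate check. miR-1a-3p stood at 140000 CPM in wild type and 94850 CPM in the knockout. The wild-type to knockout ratio was 1.48 (95% counting interval 1.47 to 1.48). The ratio was 1.30 (1.26 to 1.35) for miR-133a-3p, 2.28 (1.91 to 2.74) for miR-133a-5p and 2.28 (1.85 to 2.85) for miR-133b-3p, all higher in wild type. miR-206-3p went the other way, at 2.46 and 10.1 CPM, a ratio of 0.243 (0.132 to 0.444) on 22 and 27 counts.

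After TMM scaling over all 6 libraries, the e13.5 knockout minus wild-type log2 folds were −1.36 for miR-1a-3p, −1.18 for miR-133a-3p, −1.99 for miR-133a-5p and −1.98 for miR-133b-3p. The value for miR-206-3p was 1.17. None reached 4-fold in either direction, although miR-133a-5p and miR-133b-3p lay just short of it and the hairpin entry of miR-133b, at −2.22, was past it. By the same measure, of the 565 miRNAs that had 10 or more counts in 1 of these libraries 9.91% were at least 4-fold lower and 8.32% at least 4-fold higher. With library totals 30 were at least 4-fold lower and 83 at least 4-fold higher, and with TMM factors from the 2 e13.5 libraries alone, a setting added after seeing the data, 38 and 59, with none of the 5 arms among them. The median was −1.36 over the 5 arms with such counts and −0.42 over the 565, and with library totals −0.56 and 0.37. The e13.5 knockout library was the shallowest, its erythroid miRNAs stood at 7615 CPM against 409 in wild type, and its smooth-muscle miRNAs at 211600 against 351000. The cardiomyocyte list was also lower there, at 2185 against 4064 CPM, as were endothelial miRNAs, at 16340 against 18990 CPM. Leukocyte miRNAs stood at 117 against 55.9 CPM. On the TMM scale of the folds, the cardiomyocyte list was at 1009 in knockout against 3274 in wild type. Endothelial miRNAs were at 7547 against 15300 on that scale, and smooth-muscle miRNAs at 97730 against 282800. Leukocyte miRNAs, at 53.92 against 45.03, were closer there than in CPM, and erythroid miRNAs were at 3516 against 329.3. Their part in these folds was not tested.

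Over both stages together, with 3 libraries per genotype, 0 of the 6 arms passed by edgeR or DESeq2 and none had an unadjusted p under 0.05, beside 0.736% of 679 miRNAs. The knockout minus wild-type log2 folds ran from −0.69 (SE 0.55) for miR-133a-5p to 0.32 (SE 0.68) for miR-206-3p. The genotype by stage interaction, which asks whether the knockout difference at e13.5 departs from that in adults, passed for 0 of 6 arms by edgeR and by DESeq2, beside 0% of 769 miRNAs by edgeR, 46 of which had an unadjusted p under 0.05. Among these were miR-133b-3p (−2.03, SE 0.78, edgeR adjusted p = 0.760) and miR-1a-1-5p (−6.22, SE 2.51, edgeR adjusted p = 0.767), the latter on 8 and 0 e13.5 counts. The estimate was −1.94 (SE 1.21) for miR-1a-3p and −1.23 (SE 0.75) for miR-133a-3p. Without adult knockout replicate 1 the interaction passed for miR-1a-3p, miR-133a-5p and miR-133b-3p, where 11.8% of 737 miRNAs passed, and without replicate 2 for miR-133b-3p, where 5.31% of 753 did. Both e13.5 groups have 1 library, so the spread in this test is that of the adults.

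Other miRNAs known from muscle were read beside the members. Of the 7 arms tested among miR-208a, miR-208b, miR-499 and miR-486a, 6 were lower and 1 was higher at e13.5. In the same fit 28.4% of 679 miRNAs were lower and 29.3% were higher. The median log2 fold was −3.71 over the 7 arms, that of miR-486a-3p, against −0.065 over all tested. miR-1b, which lies antisense to Mir1a-2, had at most 17 counts in a library and was not tested in this fit. The arms of the cardiac myosin hairpins differed among themselves: −10.06 (SE 1.04) for miR-208a-5p, −1.96 (SE 0.73) for miR-499-5p and 4.59 (SE 1.0) for miR-208b-3p, which lies in the fetal cardiac myosin gene Myh7 (edgeR adjusted p = 0.000133, 0.0442 and 0.00461). The other arms of 2 of these hairpins were at −2.62 (SE 0.91) for miR-208a-3p and −3.97 (SE 1.49) for miR-499-3p (edgeR adjusted p = 0.0344 and 0.0459). For miR-208a-3p the e13.5 wild-type library, at 61.7 CPM, lay inside the adult range of 60.5 to 141 CPM, with e13.5 knockout at 12.35. For miR-499-3p it lay inside too, at 1.57 CPM on 14 counts against 1.06 to 12.7 CPM in adults. The e13.5 knockout library had 0 counts of miR-499-3p. miR-486a-5p and miR-486a-3p, also grouped with erythroid miRNAs, were at −3.75 (SE 0.93) and −3.71 (SE 0.72), with edgeR adjusted p = 0.00874 and 0.0026. For miR-486a-5p the e13.5 knockout library, at 6622 CPM, lay inside the adult range of 5509 to 21400 CPM, with e13.5 wild type at 328. Erythroid miRNAs stood at 7615 CPM in that knockout library, and their part here was not tested. miR-499-5p, like miR-1a-3p, was high at both stages, at 3786 to 7626 CPM in adults and 3651 and 2046 CPM at e13.5. With library totals or median-of-ratios factors 4 of the 7 arms passed, beside 383 and 374 of all 679 miRNAs. In adults by genotype 0 of the 7 arms passed, beside 0.735% of 544 miRNAs.

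**Figure D4:**
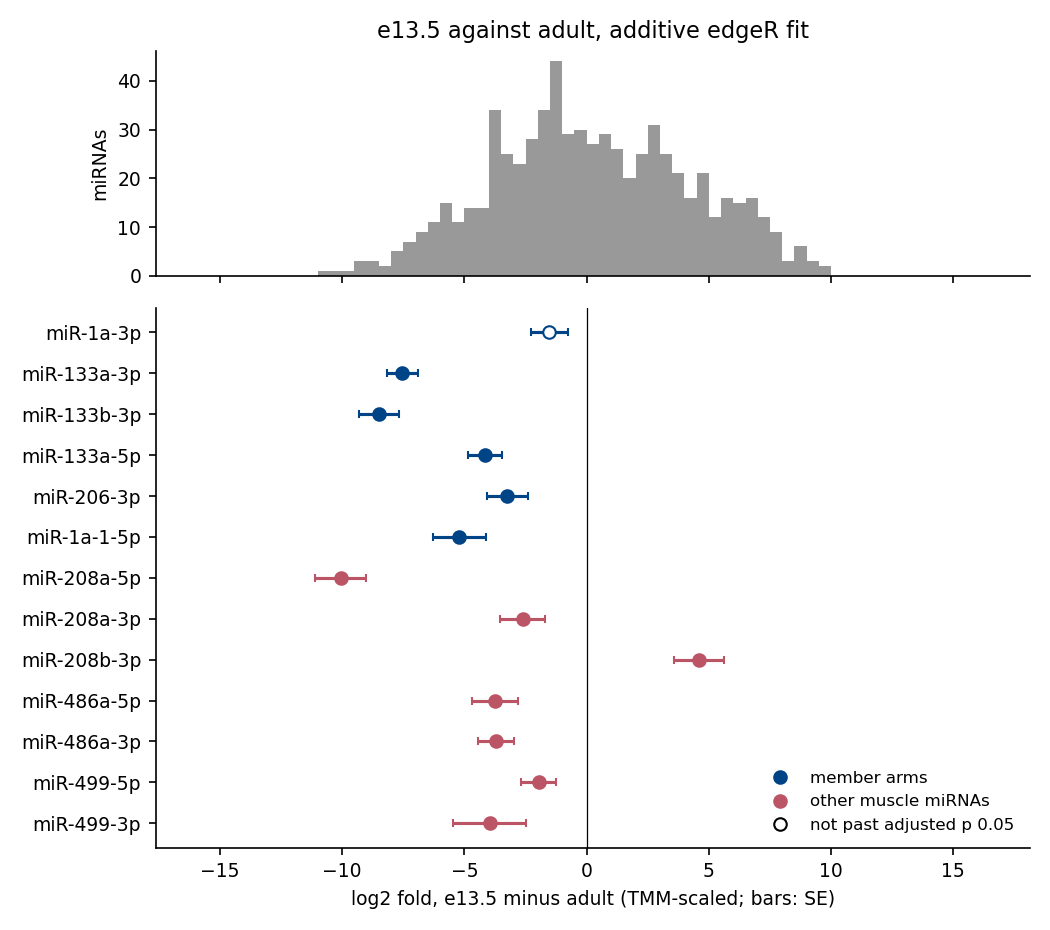
Log2 fold of e13.5 over adult (x axis) for all 679 miRNAs tested, as a histogram in bins of 0.5 (top), and for the 6 member arms and 7 arms of other muscle miRNAs with SE bars (bottom); the open point did not pass an adjusted p of 0.05. miR-133a-3p and miR-133b-3p lie near the low end of the histogram, while miR-1a-3p lies within its body at −1.54.

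A wider list of 16 miRNAs described in muscle differentiation had 36 arms tested by stage, of which 24 were lower, 6 higher and 6 did not pass at e13.5. Over all 679 miRNAs tested these shares were 28.4% lower and 29.3% higher. Its median log2 fold was −3.10, against −0.065 over all. The direction of some of these calls was favoured by the filter on low counts. miR-675-5p, with 0 counts in every adult library, and miR-675-3p, with at most 3, entered through e13.5 counts alone. miR-29a-5p and miR-29b-1-5p, with at most 2 counts in an e13.5 library, entered through adult counts alone. miR-29c-3p had 12 counts in e13.5 wild type and 6 in e13.5 knockout. miR-29a-3p and miR-29c-3p, known to restrain collagen genes, fell further than the miR-133 arms (−9.43 and −9.67), and miR-24-3p fell by 4.80 on the log2 scale. The 6 higher arms were miR-675-5p and miR-675-3p from the H19 transcript, miR-125b-1-3p, miR-322-3p, miR-503-5p and miR-503-3p. The last 3 had at most 7 counts in any knockout library, so their stage calls rest on the wild-type libraries, and they were also lower in adult knockouts by edgeR (adjusted p = 0.000908, 0.0128 and 0.00632).

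The miRNAs most like each member were ranked by Pearson correlation of log2 TMM-scaled CPM over the 6 libraries, among 331 miRNAs of at least 10 CPM on average. For miR-1a-3p they were miR-181a-1-3p (r = 0.985), miR-126a-3p (0.967), miR-499-5p (0.959), miR-126a-5p (0.953) and miR-362-3p (0.948). miR-133a-3p ranked 79th in that order, at 0.682. For miR-133a-3p itself they were miR-3968, miR-22-5p, miR-27a-3p, miR-133b-3p and miR-23b-3p, each at r = 0.999, and miR-1a-3p ranked 160th. For miR-206-3p they were let-7c-2-3p (0.974), miR-30d-5p (0.966), miR-221-5p (0.959), miR-339-5p (0.942) and miR-338-3p (0.935). These values describe 6 libraries that share their scaling, and those of miR-133a-3p are set mainly by the gap between stages. With library totals the 5 miRNAs nearest miR-1a-3p were the same, whereas 1 of 5 remained for miR-133a-3p and 3 of 5 for miR-206-3p.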

How the data were processed

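Per the labels' protocols, small RNA libraries were prepared by the NEXTFLEX kit from TRIZOL-extracted, DNase-treated RNA. The authors deposited 1 table of raw read counts, not normalised, with 3208 rows (1234 hairpins and 1974 mature miRNAs) and 1 column per library. Per the submitters' processing notes, the reads were placed on mm10. How they were aligned and counted, and how reads shared by several miRNAs were handled, is not given in the sources used here. Molecular identifiers are not mentioned. Mature rows were used, and 22 that matched another to within 1% of their total (at least 20 counts, 3 libraries) were merged into it, none of them a member. There were 0 columns of other samples and no row without a miRNA name.

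Tests used the quasi-likelihood functions glmQLFit and glmQLFTest of edgeR 4.0.16, under R 4.3.3 (two-sided, TMM, filterByExpr with a minimum count of 10, adjusted p of 0.05). Adult genotypes were fitted in 4 libraries, stage and genotype additively in 6, and the interaction on 4 group means. An SE is the fold divided by the root of the test's F value. Ratios were tested by exact permutation over libraries. DESeq2 1.42.0, other scalings, other row choices, a replicate block and left-out libraries were alternatives. All member arms are named. Of other miRNAs, the rule took list members past the threshold by stage, of which examples are given, and the 5 most alike. Arms without a call, miR-206-3p against miR-133b-3p and the motifs were chosen after values were seen. The members and lists were chosen with earlier results of these data known. The edgeR tests were tested on simulated data with less spread between libraries than was fitted here. That check therefore does not give their error rates in these data.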

Additional observations from a re-analysis of the deposited data

Results flagged for a closer look

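The 2 values here were marked because hairpin reads outside both mature arms, which no comparison uses, were a larger share in a knockout library than in the wild-type library of the same stage, with exact 95% intervals that do not overlap. For mir-133a-2 they were 9 of 4102 hairpin counts in the e13.5 knockout library, or 0.219% (0.10 to 0.416), against 5 of 18303, or 0.0273% (0.00887 to 0.0637), in e13.5 wild type. For mir-1a-2 they were 28 of 253457, or 0.0111% (0.00734 to 0.0160), against 72 of 1251946, or 0.00575% (0.00450 to 0.00724). With 1 library per genotype this difference has no replicate check, and all 6 member hairpins were looked at. No group had the 4 libraries that a search for outlying samples needs.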

How the results depend on the processing

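The stage calls of miR-133a-3p, miR-133b-3p and miR-133a-5p kept their direction and their side of the threshold under every alternative in which they were fitted, with log2 folds of −8.17 to −6.53, −9.61 to −7.53 and −5.19 to −3.19. miR-1a-3p passed with no filter on low counts (−1.57, adjusted p = 0.0381). The adult replicates share numbers but no source says that these pair them (correlation of deviations 0.0091 over 544 miRNAs). With the number as a replicate block, 6 arms passed by stage, as miR-1a-3p did at −1.45, and the adult fold of miR-133a-5p was 0.021. With arms of a shared seed summed, 3 of 4 arms passed by stage, since fewer arms were tested. In adults, with library totals, miR-133a-3p was at −0.066 and miR-133b-3p at −0.12, with totals that leave out the members at −0.054 and −0.095, and from hairpin rows miR-206-3p was at 0.071. The e13.5 median fold was −1.22 under median-of-ratios scaling, −0.56 with library totals, −0.64 with totals that leave out the members, −1.53 from hairpin rows over 4 arms and, chosen after seeing the data, −1.05 with TMM over the 2 e13.5 libraries.

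Leaving out each library in turn gave adult folds of −1.08 to 1.38 for miR-1a-3p, −0.072 to 0.20 for miR-133a-3p, −0.15 to 0.27 for miR-133b-3p, −0.52 to 0.46 for miR-133a-5p and −1.43 to 0.65 for miR-206-3p. Over both stages it gave −1.34 to 0.32 for miR-1a-3p and −0.42 to 0.89 for miR-206-3p. Member arms past the threshold then numbered 0 to 1 in adults and 0 to 3 in the interaction. For the other muscle miRNAs the counts were 0 to 2 in adults, 3 to 6 by stage and 0 to 5 in the interaction, and by stage 4 under median-of-ratios scaling and 4 under library totals. For the differentiation list, with 3 arms past in adults and 4 over both stages, they were 4 to 5 in adults, 2 to 4 over both stages and 0 to 3 in the interaction, and 17 by stage in the knockout libraries alone against 30 in all. The cause was not tested.

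Over all miRNAs, adult calls went from 4 to 9 with no filter, and to 35 and 47 without knockout replicates 1 and 2. Stage calls, 392 with all libraries, were fewer in the knockout libraries alone and more in the wild-type libraries alone. They were also fewer when any single library was left out, whether knockout or wild type. The share of stage calls that were higher was 50.8% under TMM, 64.4% under median-of-ratios scaling, 68.7% under library totals and 61.3% by DESeq2. Over both stages 5 calls became 3 from hairpin rows and 3 without either wild-type replicate. Interaction calls went from 0 to 1 with either library total, 2 with no filter, 4 by DESeq2, and 87 and 40 without knockout replicates 1 and 2. Depth limits the rare arms most: miR-206-3p and miR-1a-1-5p had 27 counts or fewer in each e13.5 library.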
